A study of Mus musculus with 2 samples.

Results

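Footprint-dense regions are stretches of open chromatin in the mouse adrenal gland that hold many short protected sites side by side in both pools studied. They were chosen from 96584 regions of open chromatin shared by the pools, each made by merging peaks that overlapped by at least 1 bp. A region was kept if it fully contained 7 or more footprints in each pool and if its highest peak signal was under 10 in at least one pool. This gave 1768 regions, 1.83% of the shared ones. The footprint calls, the peaks and their signal chose the regions, so their footprint numbers, widths and signals are given as a description, with no test.

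The data are DNase-seq libraries of whole adrenal glands of male mice aged 8 to 10 months. The strain, B6CASTF1/J, is a hybrid whose parents are C57BL/6J and CAST/EiJ. There was 1 group with 2 biological replicates, called replicate 1 and replicate 2 here. Each replicate was 1 library from a pool of 6 adrenal biosamples, and 1 donor identifier is shared by the pools. Nothing in the labels says that the pools came from separate animals, so the spread between replicates may be technical.

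In DNase-seq, the enzyme DNase I cuts DNA where it is not wrapped around nucleosomes, and the positions of the cuts are read by sequencing. A bound protein shields its site from the enzyme, which leaves a short stretch of few cuts inside an open region, called a footprint. Promoters are the regions around transcription start sites (TSSs), and many promoters of broadly active genes lie in CpG islands, which are rich in G, C and the dinucleotide CpG. The adrenal gland combines a cortex that makes steroid hormones and a medulla of chromaffin cells that make catecholamines. A whole gland mixes these cells, so fewer open alleles per cell and fewer cells with an open allele cannot be told apart.

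The sequences below show how footprints fill some of these regions, chosen for recurring footprints, and are not typical of all. They are windows of at most 300 bp that contain no annotated exon, taken from the regions with the most footprints by count, per 100 bp or away from TSSs, and each has 5 or more footprints whose centres lay within 5 bp of each other in both pools. Windows of Lims1 and Cdyl (4 such footprints each), Ppp1r18 and Ppp2r3d (3 each) and Cacna2d1 (0) fell short and are not shown. Their bases inside footprints of both pools ranged from 0 in Cacna2d1 to 70 in Lims1, of 300 in each window. Bases inside footprints of both pools are in capitals. Coordinates are on mm10 (GRCm38), and the letters come from the RefSeq copy of that assembly, which represents C57BL/6J, so the CAST/EiJ allele of these mice is not shown.

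Garnl3 window, chr2:33130663-33130962, plus strand: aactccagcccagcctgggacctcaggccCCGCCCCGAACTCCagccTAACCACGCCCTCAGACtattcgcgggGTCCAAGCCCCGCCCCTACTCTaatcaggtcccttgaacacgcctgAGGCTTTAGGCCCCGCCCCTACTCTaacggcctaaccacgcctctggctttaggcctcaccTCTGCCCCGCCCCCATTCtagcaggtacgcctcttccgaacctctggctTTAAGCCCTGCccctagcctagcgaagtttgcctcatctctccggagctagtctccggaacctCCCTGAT

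Peg3 window, chr7:6728354-6728653, plus strand: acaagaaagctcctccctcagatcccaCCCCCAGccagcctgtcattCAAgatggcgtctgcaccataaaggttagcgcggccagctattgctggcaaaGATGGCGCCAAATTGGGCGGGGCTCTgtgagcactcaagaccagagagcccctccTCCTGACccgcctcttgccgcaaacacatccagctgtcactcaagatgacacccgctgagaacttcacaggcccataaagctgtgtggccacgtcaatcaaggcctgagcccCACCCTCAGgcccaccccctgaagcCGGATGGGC

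Tmem87b window, chr2:128817801-128818100, plus strand: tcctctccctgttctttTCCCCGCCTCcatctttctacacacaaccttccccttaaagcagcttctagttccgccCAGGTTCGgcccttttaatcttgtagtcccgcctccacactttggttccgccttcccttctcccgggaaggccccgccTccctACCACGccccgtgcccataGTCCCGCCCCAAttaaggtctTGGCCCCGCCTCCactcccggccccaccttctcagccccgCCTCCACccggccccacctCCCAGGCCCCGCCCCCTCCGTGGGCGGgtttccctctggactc

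Ttc8 window, chr12:99097001-99097200, plus strand: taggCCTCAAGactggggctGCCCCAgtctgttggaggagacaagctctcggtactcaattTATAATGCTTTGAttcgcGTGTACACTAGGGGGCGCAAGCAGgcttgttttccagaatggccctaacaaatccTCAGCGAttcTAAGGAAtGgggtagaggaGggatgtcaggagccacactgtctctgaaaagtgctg

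The Garnl3 window held 8 footprints in each pool, 7 of them repeated, and 114 of its 300 bases were inside footprints of both pools. Garnl3 encodes a protein with a Rap GTPase-activating domain. All 4 matches to the GC box GGGCGG in that window, the core letters bound by SP and KLF proteins and read here on both strands, had their centre in a footprint of both pools. The Tmem87b window had 4 such matches, 3 of them in a footprint of both pools. The Peg3 window, in the gene of an imprinted zinc finger protein expressed from the paternal allele, had 2 matches to the YY1 motif AANATGGCG, 1 of them in a footprint of both pools. The Ttc8 window is the whole 200-bp region, which lies between genes and 176489 bp from the nearest protein-coding TSS, that of Ttc8, a subunit of the ciliary BBSome. It held 7 footprints in each pool, 5 of them repeated, and no match to the GC box.

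The 1768 regions together held 15285 footprints in replicate 1 and 15825 in replicate 2. That was 5.61% and 4.95% of all footprints called in the pools. Most members sat at the lower limit: the lower of the 2 counts was 7 in 887 regions, 8 in 440 and 9 in 207. Only 1 region reached a lower count of 20. The counts of the 2 pools were equal in 490 members, within 1 of each other in 1099 and within 2 in 1438, while 80 differed by 5 or more. Replicate 2 had the higher count in 731 members and replicate 1 in 547. A further 1813 regions had the same limit on signal and a lower count of 6, just outside the rule. Their median width was 300 bp, against 380 bp for members with a lower count of 7. At the other limit, the member nearest to a signal of 10 in its lower pool was at Rras, a Ras-related GTPase, with signals of 9.99 and 11.4. The closest regions left out had signals of 10.0 and 12.6 at Fam53a and 10.0 and 11.2 at Nf2, the merlin tumour suppressor.

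Members were wider and had more signal than shared regions in general. The median width was 420 bp (range 200 to 2020 bp), against 240 bp in the other shared regions. The highest peak signal of a member had medians of 3.17 and 4.22 in replicates 1 and 2, against 0.795 and 1.02 elsewhere. Replicate 2 gave the higher signal in 97.1% of members and in 83.4% of all shared regions. A peak of the shorter, second list that the authors deposited was present in both pools in 99.1% of members, beside 64.7% of all shared regions. Every base of the region had a false discovery rate (FDR) of cleavage of 0.001 or lower in 84.9% of members in replicate 1 and 90.5% in replicate 2, beside 31.7% and 45.0% of all shared regions. In 27.9% of members, 2 or more peaks of a pool had been merged, compared with 3.81% of all shared regions and 40.3% of the 7106 shared regions that were at least as wide as the median member but had under 7 footprints in a pool.

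The region with the most footprints lay at Nsd1, a histone methyltransferase of lysine 36 on histone H3, and held 20 footprints in replicate 1 and 22 in replicate 2 over 1180 bp (chr13:55210761-55211940). Its signals were 1.97 and 2.81, below the member medians. Zfp335, a zinc finger regulator of transcription, followed with 18 and 21 footprints over 940 bp. The third was the Garnl3 region (chr2:33130601-33131420), with 19 and 18 footprints over 820 bp, and its signals of 9.81 and 10.9 were close to the limit. Ppp1r18, a regulatory subunit of protein phosphatase 1, had 17 and 18. Tsen34, a subunit of the tRNA splicing endonuclease, had 17 in each pool. Peg3 had 16 and 19, Cacna2d1, a calcium channel subunit, 18 and 16, and Klf10, a Krüppel-like zinc finger factor, 16 and 17. The list of 12 closed with Rev3l, the catalytic subunit of DNA polymerase zeta, at 17 and 16, the adaptor gene Lims1 at 16 in each pool, and Tmem87b and the chromodomain gene Cdyl at 15 and 17 each.

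**Figure D1:**
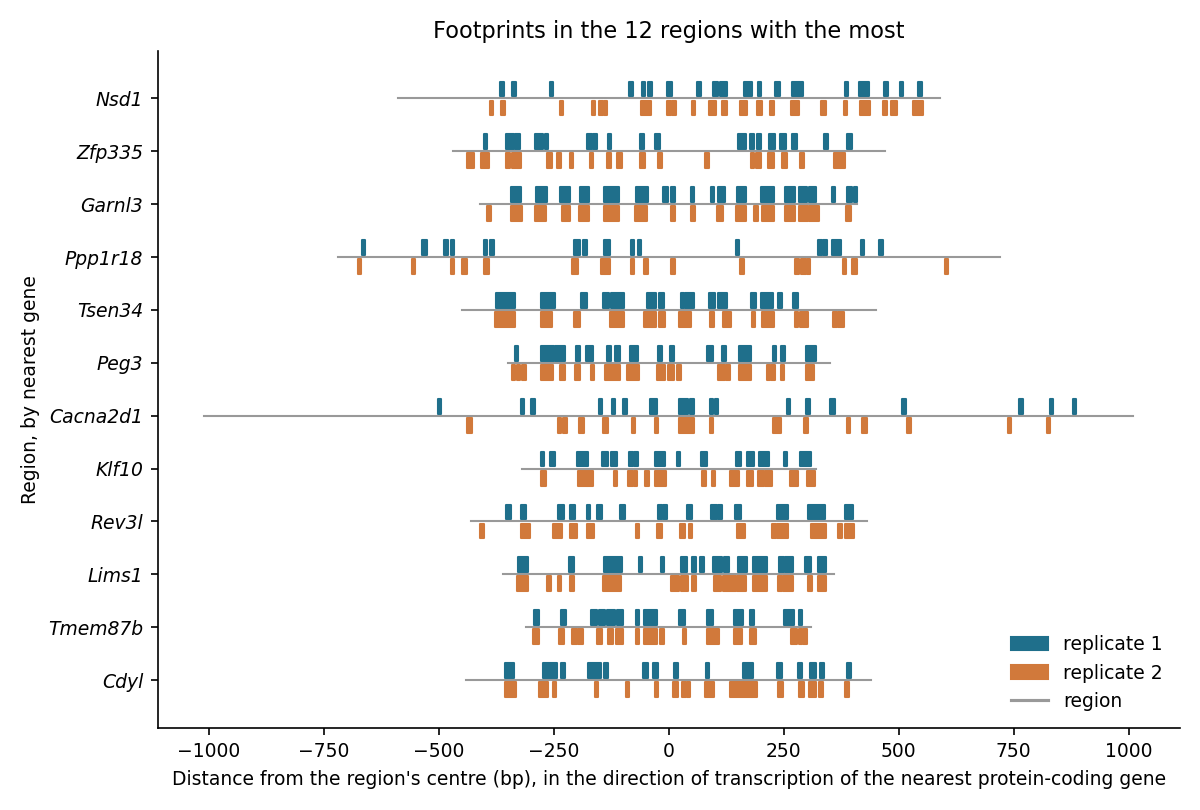
Footprints in the 12 regions with the most, by distance from the region's centre in bp, with replicate 1 above and replicate 2 below each grey line, which spans the region. Most of the 16 repeated footprints of Garnl3 line up between the rows, whereas Cacna2d1 has 18 and 16 footprints spread over 2020 bp and 2 repeated. Only footprints fully inside the region are drawn, while a partner was sought among all footprints of the other pool.

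These 12 regions differed in how well their footprints recurred at the same position. In Garnl3, 16 of the 19 footprints of replicate 1 had a partner in replicate 2 with its centre within 5 bp. Tsen34 and Lims1 had 12 such footprints each, and Peg3 and Tmem87b 11 each. Nsd1, first by count, had 8, Ppp1r18 had 5, and Cacna2d1 had 2 of 18 in a region of 2020 bp with signals of 0.817 and 1.42. A high count in both pools therefore did not mean the same footprints in both pools.

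Packing was tightest in short regions. The rule asks for 7 or more footprints at any width, so a short member has to be densely packed. The densities of members are therefore given as a description. The 220-bp region 44 bp upstream of the Tti2 TSS, a component of the TTT chaperone complex for PI3K-like kinases, held 8 and 9 footprints, a mean of 3.86 per 100 bp. Nmnat1, an NAD synthesis enzyme, had 8 in each pool, and Rnf168, a ubiquitin ligase of the DNA damage response, had 9 and 7, both within 220 bp and at 3.64 per 100 bp. The regions of Nedd4l (3.54), Ttc8 (3.50) and Saysd1 (3.46) completed the 6 densest. The median over members was 2.03 footprints per 100 bp, and over the other shared regions 0.909. Of the 6 densest, 5 were promoters and 1, Ttc8, lay between genes.

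Most footprint-dense regions were promoters. The midpoint lay within 1 kb of an annotated TSS in 1443 of 1768 members, or 81.6% (95% Wilson interval 79.7 to 83.4), while 24.8% of all shared regions were in this class. The remaining 325 members, called distal here, comprised 150 between genes, 136 in introns and 39 in exons. Among the 7106 wide regions with fewer footprints, 50.8% were promoters. Among the 229 regions that met the same footprint count with a signal of 10 or more in both pools, 96.1% were. A TSS lay inside 68.0% of members, beside 13.2% of all shared regions. TSSs of protein-coding genes on both strands were sought from 1 kb before a region to 1 kb after it. They were present at 10.0% of members (177 regions), beside 1.91% of all shared regions. The share was 12.3% of promoter members, 7.33% of the other promoter regions and 17.0% of the 229 regions with a signal of 10 or more. Whether the TSSs point apart, as at a bidirectional promoter, was not checked, and a wider region has a wider window. Coding sequence overlapped 23.9% of members, beside 9.11% of all shared regions and 23.2% of the wide regions with fewer footprints.

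**Figure D2:**
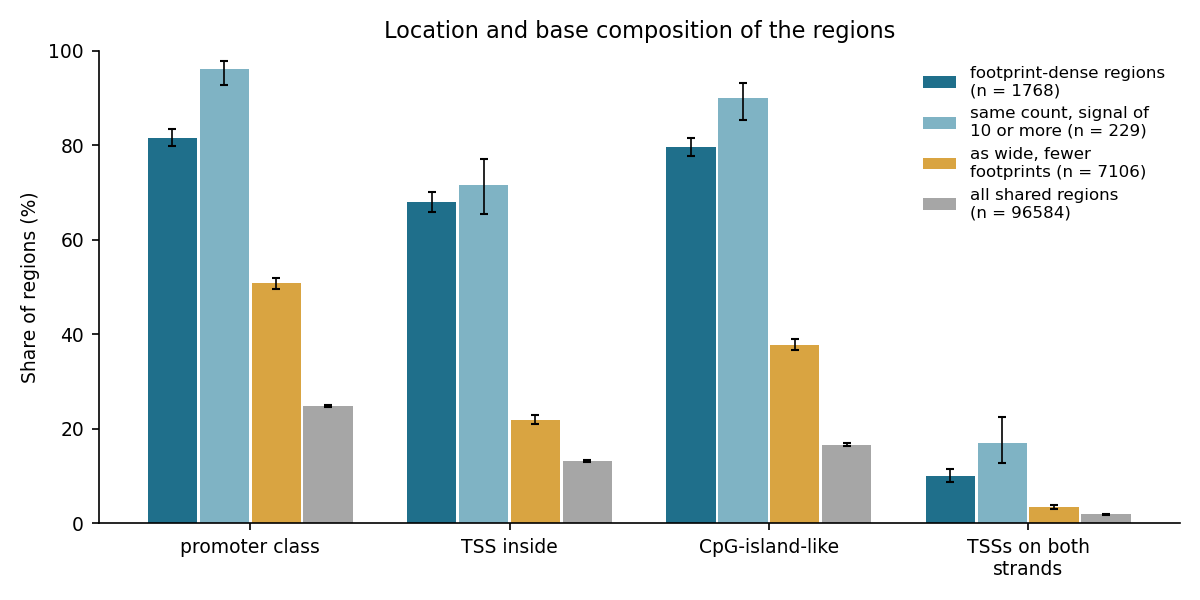
Share of regions in % with 4 properties (promoter class, a TSS inside, CpG-island-like composition, protein-coding TSSs on both strands) in 4 sets of regions; error bars are 95% Wilson intervals, which cover counting error only. Footprint-dense regions reach 81.6% in the promoter class, regions as wide with fewer footprints 50.8% and all shared regions 24.8%.

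Members were also rich in G, C and CpG. CpG-island-like composition, defined as over 50% G+C, a ratio of observed to expected CpG over 0.6 and a width of at least 200 bp, was met by 1408 members (79.6%), beside 16.6% of all shared regions. The median G+C share of a member was 65.5%, against 51.0% in the other shared regions, and the median CpG ratio was 0.813 against 0.267. The high-signal regions had lower medians than members, 62.7% and 0.789. Yet 206 of these 229 regions were CpG-island-like, a larger share than the 79.6% of members. The promoter members were almost all of this kind (90.1%), and so were 55.8% of the other promoter regions. Of the 325 distal members, 33.2% were CpG-island-like, beside 2.88% of the other distal regions. Lower-case (repeat-masked) bases made up over 50% of the region in 3 members (0.170%), beside 2.58% of all shared regions. DNase I cuts some sequences more readily than others, and the part of base composition in these footprint calls was not tested.

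Members occurred on every chromosome analysed. Their share of the shared regions ran from 1.36% on chromosome 6 to 2.51% on chromosome 19. The X chromosome held 57 members, 3.22% of them, beside 2.56% of all shared regions. The Y chromosome held 1, at the promoter of Eif2s3y. Within 1 Mb of the distal end of a chromosome's assembly lay 24 members (1.36%), beside 0.742% of all shared regions. In the promoter class the shares were 1.11% of members and 1.05% of all. Among distal regions they were 2.46% of members (8 of 325) and 0.639% of all, and the 8 include Ppp2r3d and Csf2ra, which prompted the choice of this window. Another member lay within 10 kb of 146 members (8.26%).

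Around protein-coding TSSs, members leaned upstream. Among the 1381 members used for this profile, the midpoint lay upstream of the TSS in 66.2%, at a median of -55 bp (quartiles -144 and 38 bp). This share is not given for the other promoter regions, whose bases also leaned upstream near the TSS. Between 100 and 150 bp from it they had 428523 bases upstream and 227648 downstream, beside 54689 and 33236 in members. Between 350 and 400 bp they had 72801 upstream and 144118 downstream, beside 16773 and 9740 in members. Footprints covered most of the 50 bp just upstream of the TSS relative to other positions: 33.6% of member bases there were inside footprints in replicate 1 and 36.9% in replicate 2. In the next 50 bp downstream the cover was 26.2% and 28.3%. It fell to 12.1% and 15.2% between 350 and 400 bp downstream and was still 19.02% and 21.4% between 350 and 400 bp upstream. Other promoter regions peaked in the same bin, at 27.7% and 30.6%, and dropped faster, to 5.49% and 6.09% between 350 and 400 bp downstream. The rule itself asks for many footprints, so the higher level in members is given as a description.

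**Figure D3:**
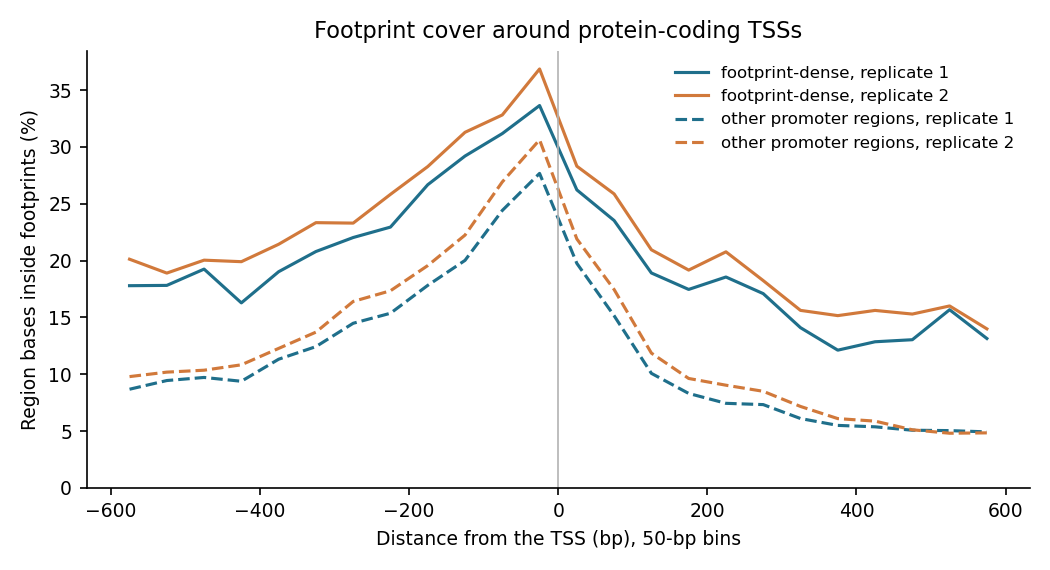
Share of region bases inside footprints in % by distance from the protein-coding TSS in 50-bp bins, for members (solid) and other promoter regions (dashed), with 1 line per replicate. All 4 lines peak in the 50 bp upstream of the TSS, at 33.6% and 36.9% in members and 27.7% and 30.6% in the others.

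Footprints in members were short and closely set. The rule asks for many footprints in a region, and the wide regions with fewer footprints are those that failed that count. Spacing and cover are therefore given as a description. The median footprint width was 10 bp in replicate 1 and 11 bp in replicate 2. The median distance between the centres of neighbouring footprints was 39.5 bp in each replicate (mean 39.5 ± 0 bp, SD, n = 2), and the median gap from one footprint to the next was 27 and 26 bp. In the other shared regions with 2 or more footprints the median distance was 45.8 ± 0.354 bp (SD, n = 2), and in regions as wide as members but with fewer footprints 56.3 ± 0.354 bp. Regions of equal count and a signal of 10 or more had the same median distance as members, 39.5 ± 0.707 bp, with wider footprints (15.5 ± 0.707 bp against 10.5 ± 0.707 bp). Footprints covered 23.1 ± 1.27% of member bases, 11.1 ± 1.06% of the other shared regions and 38.1 ± 0.775% of the high-signal regions.

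The distances in members had a clear peak at short lengths, and a clear second peak was seen only in the other shared regions. In members, the most frequent class was 15 to under 20 bp, with 11.2% of distances in replicate 1 and 10.1% in replicate 2. After a trough at 40 to under 45 bp (5.56% and 5.85%), the share rose only slightly, to 5.95% and 6.19% at 50 to under 55 bp. The other shared regions had a deeper trough, 4.47% and 4.53%, and a second peak at 55 to under 60 bp, with 6.99% and 7.18%. Distances from 20 to under 40 bp made up 28.9 ± 1.24% in members (SD, n = 2) and 23.6 ± 0.226% elsewhere. Long distances of 160 bp or more, about a nucleosome's length or above, were 2.02 ± 0.246% in members, 1.57 ± 0.0985% in the other shared regions and 10.8 ± 0.818% in wide regions with fewer footprints. Within a member, the span of the footprints had medians of 337 and 346 bp in replicates 1 and 2, and the longest gap had a median of 69 and 65 bp. Promoter members had a median distance of 38.5 bp and distal members one of 43.5 bp, the same value in each replicate.

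**Figure D4:**
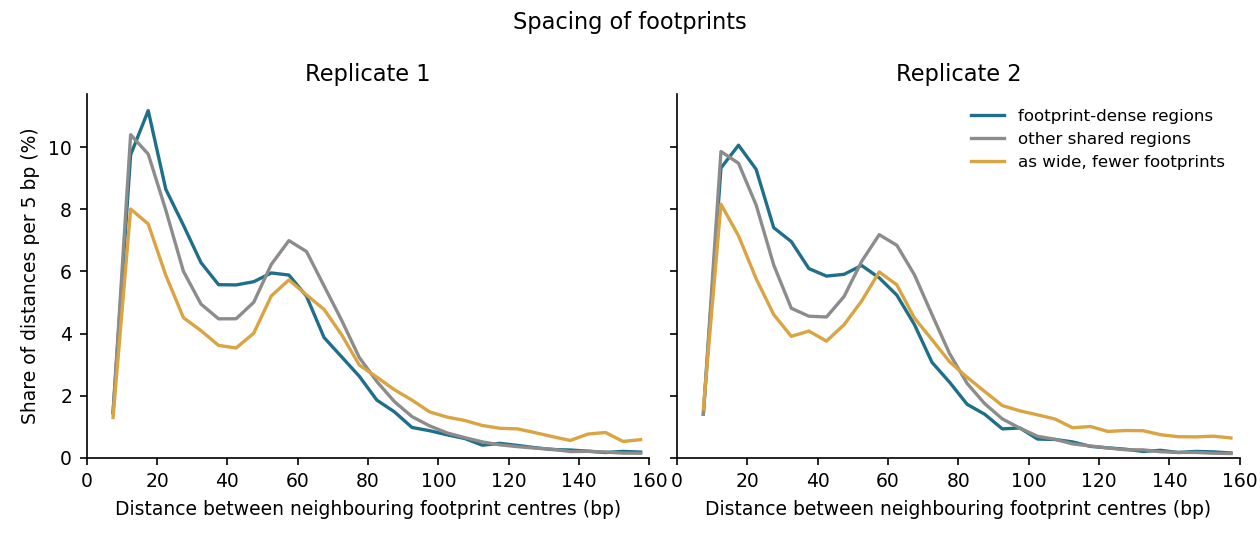
Distribution of the distance between neighbouring footprint centres in bp, as % of distances per 5-bp class up to 160 bp, for members, the other shared regions and wide regions with fewer footprints, 1 panel per replicate. Members have the highest share at 15 to under 20 bp (11.2% and 10.1%) and only a small rise near 50 bp, where the other regions have a second peak.

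About 1 in 2 footprints of a member recurred in the other pool. Of the footprints in replicate 1, 8332 of 15285 (54.5%) had a partner in replicate 2 with its centre within 5 bp, and in the reverse direction 8328 of 15825 (52.6%) did. The mean was 53.6 ± 1.33% (SD, n = 2). In the other shared regions the values were 40.5% and 37.8%, in wide regions with fewer footprints 26.2% and 24.9%, and in the high-signal regions 76.2% and 75.6%. Members were chosen for many footprints in each pool, and a partner by position alone is likelier where footprints are denser. That level was not estimated. Recurrence rose with footprint width. Footprints under 10 bp recurred in 38.3% and 35.0% of cases, those of 10 to under 20 bp in 63.0% and 60.5%, and those of 20 bp or more in 81.0% and 77.9%. Per member, a median of 5 footprints recurred, with a range of 0 to 16. Only 261 members (14.8%) had 7 or more recurring footprints, and 10 had none.

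Sequence motifs of promoter factors were frequent in members, and some lay almost always in footprints. The GC box GGGCGG was present in 80.9% of members (on either strand, 1431 regions), beside 19.9% of all shared regions. Its letters in reverse order, GGCGGG, without complementing, were present in 79.5%. The ETS motif CCGGAAG was found in 19.8% of members (beside 4.61%), the CCAAT box CCAATNA of NFY in 17.2% (beside 10.1%), the YY1 motif AANATGGCG in 6.62% (beside 1.21%), the NRF1 motif CGCATGCGC in 4.41% (beside 0.721%) and the cyclic AMP response element TGACGTCA, or CRE, in 4.36% (beside 1.16%). The E-box CACGTG was in 16.0% (beside 5.98%), the E-box CAGCTG in 25.7% (beside 19.6%) and the ZNF143 motif ACTACAANT in 2.66% (beside 0.843%). Motifs that are common at distal sites were scarcer: the AP-1 motif TGANTCA in 11.8% (beside 23.5%), the CTCF motif in 1.75% (beside 4.86%), and NCAAGGTCA, bound by the steroidogenic regulator NR5A1, in 3.11% (beside 6.66%). The TATA box TATAAA was in 7.13% (beside 7.92%) and the full glucocorticoid response element in 0.452% (beside 0.713%). Of members 81.6% are promoters, against 24.8% of all shared regions, and how far this mix sets the motif shares was not tested. Members are also wider than shared regions and so offer more positions for a match. Per kb of sequence, the CCAAT box was about as dense in members (0.446 matches) as in all shared regions (0.427), and the E-box CAGCTG was less dense (0.655 against 0.843). For the GC box the density was 5.38 against 1.45 and for ETS 0.523 against 0.197.

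Matches were then placed relative to footprints. Footprints cover 23.1% of member bases. This is a mean over all bases and is not matched to a motif's base composition or its distance from the TSS. The shares for reversed letters, where given, differ widely from it. For motifs given without reversed letters, no such level is stated. The NRF1 motif had its centre in a footprint in 132 of 143 matches in replicate 1 and 136 in replicate 2 (93.7 ± 1.98%, SD, n = 2). NRF1 is a regulator of mitochondrial and other growth genes, and its palindromic site can be counted on both strands. For the CRE, bound by CREB and ATF proteins downstream of protein kinase A, it was 76 of 87 in each replicate (87.4%), while 7.14% of the reversed letters (14 matches) lay in footprints. CTCF, an architectural zinc finger protein, had 31 matches, of which 22 and 27 lay in footprints. The NFI motif had 18, with 17 in each replicate. In the other shared regions the CRE share was 71.9%, that of NRF1 88.6% and that of NFI 71.5%.

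Other motifs were in footprints less often. YY1 matches were in 45.7 ± 1.66% of 128 cases (SD, n = 2), NR5A1 matches in 43.3% of 60 in each replicate, ETS matches in 40.9 ± 3.46% of 450 (reversed letters 22.1%), and the E-box CACGTG in 38.9 ± 1.72% of 329 (reversed letters 15.6%). The GC box was in footprints in 52.2 ± 3.12% of 4628 matches, and its reversed letters in 49.8%. Near the mean cover of member bases were AP-1, with 28.3 ± 6.94% of 265, and the CCAAT box, with 24.1 ± 2.03% of 384. The TATA box was in a footprint in 21.2% and 36.4% of 99 matches in promoter members, and in 11.97% and 10.9% of 1278 matches in other promoter regions. GATA motifs (AGATAAG) had 3 of 41 matches in footprints in each replicate.

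**Figure D5:**
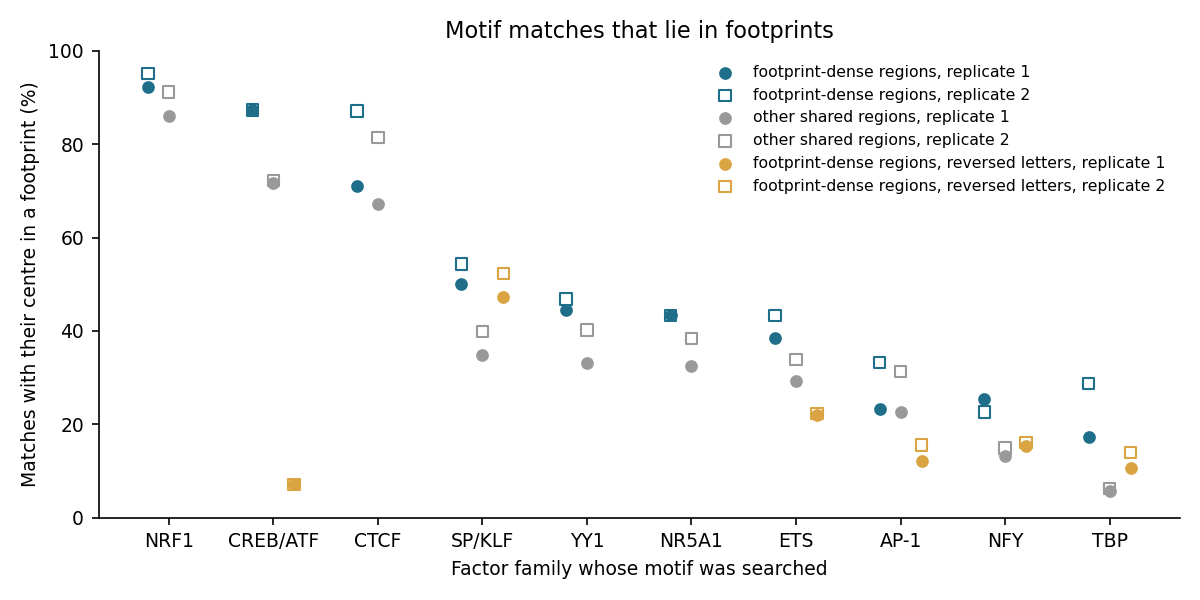
Share of motif matches in % whose centre lies in a footprint, for 10 factor families, in members, in the other shared regions and, for members, with the motif's letters reversed; circles are replicate 1 and squares replicate 2, and sets of under 10 matches are not drawn. NRF1 and CREB/ATF motifs in members reach 92.3% and 87.4% in replicate 1, whereas SP/KLF motifs (49.96%) and their reversed letters (47.4%) lie together.

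The sites below show the motifs with the highest shares, with NR5A1 and YY1 added for their place in the adrenal cortex and at Peg3. Each is a 30-base stretch of mm10 from RefSeq, written 5′ to 3′ on the strand that reads the motif, with the motif in capitals. Each motif had its centre in a footprint of both pools.

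NRF1 at Zfand3, chr17:30004360-30004389, minus strand: cagagcggcggCGCATGCGCctggagacct

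NRF1 at Vkorc1l1, chr5:129941731-129941760, plus strand: ccacgccctcCGCATGCGCcgcaccacctc

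CRE at Rap2a, chr14:120477876-120477905, plus strand: gggcgggccggTGACGTCAtcgggcgcgga

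CRE at Csf2ra, chr19:61226018-61226047, plus strand: acaggacgcggTGACGTCAcgtgggggacc

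NFI at Galt, chr4:41755474-41755503, plus strand: tcacgtgTTGGCGACTAGCCAAtcatccag

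CTCF at Ap5b1, chr19:5568361-5568390, minus strand: cctttacggCCACTAGAGGGCgcccaggtc

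CTCF at Usp9x, chrX:13071314-13071343, minus strand: cgctgtgggCCACTAGGGGGCccagacaag

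NR5A1 at Mtrf1l, chr10:5824133-5824162, minus strand: cactcgctatcTCAAGGTCAcgcctaggca

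NR5A1 at Fam120a, chr13:48968777-48968806, plus strand: tcagagaagtTCAAGGTCAttccatccaat

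YY1 at Peg3, chr7:6728441-6728470, plus strand: attgctggcaAAGATGGCGccaaattgggc

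YY1 at Peg3, chr7:6728729-6728758, plus strand: tcagccagcaAAGATGGCGtcagggtaggt

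YY1 at Peg3, chr7:6728870-6728899, plus strand: ttggccaggaAAGATGGCGccaggatgggc

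The 3 Peg3 sites come from 1 region of 700 bp in an intron, with its midpoint 1790 bp downstream of the Peg3 TSS (chr7:6728281-6728980). It held 4 YY1 matches, more than any other member, of which 3 in replicate 1 and 4 in replicate 2 lay in footprints. A second member, 2730 bp downstream of the TSS (chr7:6727381-6728000), held 3 matches, 2 and 3 of them in footprints. That region had 11 footprints in each pool, 9 of them recurring. The G+C share of these regions was 56.3% and 54.5%, and the CpG ratios of 0.353 and 0.332 were far below the member median of 0.813. Both signals of the larger region, 5.37 and 5.60, were above the member medians. Sesn1, a stress-response gene, had the most NRF1 matches of any member, 4, all in footprints of both pools. At Csf2ra, a cytokine receptor chain, the member held 3 CREs, 2 of them in footprints in each pool.

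The distal members differed from the promoter members in size and sequence. Their distance to the nearest TSS ranged from 1010 to 252644 bp with a median of 7534 bp, and 121 of 325 (37.2%) lay within 5 kb. Their median width was 460 bp and their median signals 2.53 and 3.07, against 3.38 and 4.55 in promoter members. AP-1 motifs were present in 31.7% of distal and 7.28% of promoter members, NR5A1 motifs in 8.31% and 1.94%, and GC boxes in 52.3% and 87.4%. In the other distal regions the shares were 28.1% for AP-1, 7.94% for NR5A1 and 8.26% for the GC box. Per kb of sequence, distal members held fewer AP-1 matches than the other distal regions (0.856 against 1.33) and fewer NR5A1 matches (0.165 against 0.330). After Peg3, the distal member with the most footprints had 15 in each pool over 1460 bp. It lay in an intron, with its midpoint at -16017 bp from the nearest protein-coding TSS. That TSS belongs to Ppp2r3d, a protein phosphatase 2 regulatory subunit, and whether the intron is of the same gene was not checked. The Csf2ra region had 13 and 15. A region between genes, with its midpoint at -13058 bp from the TSS of Ints3, a subunit of the Integrator complex, had 15 and 12. Impact, an imprinted gene, had 14 and 12 in an intronic region of 460 bp. A region in an intron, with its midpoint 9811 bp from the nearest protein-coding TSS, that of Fam229a, had 12 and 14.

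At the level of genes, 1562 of 21911 protein-coding genes had a footprint-dense region within 1 kb of a TSS, or 7.13%. Of the 13533 genes with any shared region there, this was 11.5%, and list counts below are given out of such genes. The lists were compared by count alone, since genes of a list differ in promoter width and signal. Genes named below without a member, and the member inside Star, were chosen after their values were seen.

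Of 21 steroidogenesis genes with an open promoter, 1 had a footprint-dense region there, Scarb1, the receptor that takes up cholesterol from high-density lipoprotein, with 7 and 8 footprints over 340 bp. The promoter of Star, which moves cholesterol into mitochondria, held 5 and 9 footprints over 260 bp, and that of Cyp11a1, the side-chain cleavage enzyme that starts steroid synthesis, 5 and 6. Both had signals above the member medians: 5.44 and 6.52 at Star, 4.45 and 5.20 at Cyp11a1. The regulator gene Nr5a1 had 3 in each pool. Por, the electron donor of microsomal P450 enzymes, met the footprint count with 9 and 11 but had signals of 14.4 and 16.3, above the limit, and so did Fdxr, the electron donor of the mitochondrial ones, with 8 and 9. Star did have a member inside its gene, 6517 bp downstream of the TSS (chr8:25814721-25815260), with 7 and 9 footprints and signals of 3.87 and 3.72.

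Of 11 genes that respond to glucocorticoids, all with an open promoter, 5 had a member. Zbtb16, a zinc finger repressor, held 12 and 13 footprints over 780 bp with signals of 2.44 and 2.95. Klf9, a Krüppel-like factor induced by the glucocorticoid receptor, held 10 and 13 over 560 bp with signals of 8.05 and 9.51. Dusp1, a phosphatase of MAP kinases, held 8 and 7. The other 2 were Fkbp5 and Errfi1, named because the count is small. Per1 had 8 and 10 footprints with signals of 15.9 and 17.4 and was left out by the signal limit.

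Immediate early genes, whose transcription follows stimuli within minutes, gave 5 of 13. Fos held 10 and 11 footprints over 500 bp, with signals of 3.67 and 4.67. Klf4 held 10 and 9 over 900 bp at low signals of 0.691 and 0.927, and Fosb 8 and 9 over 280 bp. Jund and Nr4a1 made up the rest. Jun, with signals of 15.4 and 16.9 over 260 bp, held 5 footprints in each pool. In the circadian clock list, 5 of 15 genes had a member, and by the rule on a single pool 3 did without replicate 1 and 8 without replicate 2. Nr1d2, a heme-binding repressor, held 11 footprints in each pool with signals of 7.37 and 8.82. Per2 and Per3, period genes of the negative arm, held 8 in each pool, as did Clock, and Tef held 7 and 8. In Per2 5 footprints recurred, in Per3 6 and in Clock 1.

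Signalling through cyclic AMP, by which ACTH drives the cortex, gave 4 of 18. Creb1, the CRE-binding factor, held 9 and 12 footprints over 440 bp with signals of 6.39 and 7.44. Pde8a, a phosphodiesterase, held 8 and 7, Crem, the CRE modulator, 7 and 8, and Gnas, the stimulatory G protein subunit, 7 and 9. Over the 18 genes, the lower count of the best promoter region ranged from 2 to 9, with a median of 4.5. Prkaca, the catalytic subunit of protein kinase A, held 5 and 6. Of 14 open promoters of zona glomerulosa and capsule genes, 2 had a member: Lef1, a WNT effector, with 10 and 12 footprints over 1640 bp, and Znrf3, a ubiquitin ligase that limits WNT signalling, with 7 and 9 over 360 bp.

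Several lists had no member. Of 20 chromaffin cell genes with an open promoter the highest lower count was 4, and of 12 endothelial genes it was also 4. Their promoters had low signals, with medians of 1.16 and 1.67 in the chromaffin list and 0.944 and 0.819 in the endothelial list. The member medians were 3.17 and 4.22. None of the open promoters of Schwann cell (3 genes), macrophage (5), lymphocyte (1), fibroblast and mural cell (7), adipocyte (5), hepatocyte (3), kidney (1), neuron (4) or spermatogenesis (3) genes was a member. With so few genes per list, and 11.5% over all genes, the absence of a member says little. Median signals in these lists were under the member medians except for spermatogenesis (3.57 and 4.91). The 22 cholesterol synthesis genes and 12 housekeeping genes had no member, and their promoters had signals above the member medians, with medians of 6.94 and 9.06 in the first list and 5.78 and 7.13 in the second. Srebf2, a regulator of cholesterol synthesis, met the footprint count with 7 in each pool, and its signals of 11.1 and 13.3 left it out. The best region of each housekeeping gene had a lower count of 3 to 6, for instance 6 in each pool over 300 bp at Gapdh, the glycolytic enzyme.

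The 12 gene families defined by symbol had shares on both sides of the background of 11.5%. Cytosolic ribosomal protein genes gave 10 of 83 open promoters, mitochondrial ribosomal protein genes 12 of 78, complex I subunits 4 of 36, proteasome subunits 2 of 37 and Zfp zinc finger genes 39 of 339. The largest share was that of Klf genes, 5 of 14, with Klf10 (16 and 17), Klf9 (10 and 13) and Klf13 (11 and 10) leading. Replication-dependent histone genes gave 8 of 32, which rest on 5 regions shared among neighbours. Splicing factor genes of the Srsf, Hnrnp and Snrp groups gave 8 of 42. Ube2 genes of E2 ubiquitin enzymes came next with 6 of 34, and Nr genes of nuclear receptors gave 2 of 19. Hox genes gave 2 of 22, Hoxb3 and Hoxb2, both with signals under 1.5 in each pool. No member lay at the 25 open promoters of olfactory receptor genes.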

How the data were processed

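DNase-seq data of 2 pools of mouse adrenal glands were analysed. Per pool, the deposited files are 2 peak lists with a signal, footprint positions and a table of FDR values for the rate of cleavage, made on mm10 from that pool's filtered alignments per the readme texts of the authors. Every footprint carries the same deposited value, 0.01, so only positions were used. The signal of the deposited peaks has no stated scaling. The aligner and callers were not given in the sources used here, and no read totals are stated, so depth is unknown.

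The longer list of each pool (117371 and 146307 peaks) was merged at 1 bp of overlap. Footprints (272595 and 319381) were counted where fully contained. TSSs and exons came from GENCODE M21, and sequence from RefSeq's GRCm38.p6. A promoter region has its midpoint within 1 kb of any TSS. Footprints recurred if centres lay within 5 bp. Motifs were matched on both strands. All 267 listed genes matched by symbol.

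Named regions were the 12 with the most footprints by the lower count, the 6 with the most per 100 bp, the 6 distal ones with the most, up to 3 genes per list and those at the limits. 1 sequence window that met the rule is not reported here. The members, lists and motifs were chosen with earlier results of these data known. No test was run, since there is 1 group and the footprint calls chose the regions. Wilson intervals cover counting error only. Scripts were tested on simulated regions and ran under Python 3.11.15, pandas 2.3.3 and numpy 2.4.6.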

Additional observations from a re-analysis of the deposited data

How the results depend on the processing

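The counts depended most on the footprint number asked for. With 6 or more footprints there were 3581 regions, 77.5% of them promoters, with a median spacing of 39.0 bp and 2962 genes. With 8 or more there were 881 regions, 84.1% promoters, 39.8 bp and 811 genes. Applied to 1 pool at a time, the rule gave 2743 to 3143 regions, 70.3% to 73.0% promoters and a median spacing of 34.5 bp either way. Promoter windows of 500 bp and 2 kb gave shares of 75.7% and 84.9%, and TSSs of protein-coding genes alone 78.1%. The median spacing was 39.0 bp with footprints counted by overlap, with only the stronger 50% of peaks, with an overlap of 50% of the shorter peak and from start to start, and 38.5 bp with the shorter list. Recurrence was 33.2% with centres within 2 bp, 68.0% within 10 bp and 68.1% by overlap, and 56.1% with no upper limit on signal. In members with 1 peak per pool, an alternative chosen after seeing the data, spacing was 35.8 bp and recurrence 58.4%.

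Steroidogenesis genes gave 3 in place of 1 without the signal limit, and 4 by replicate 2 alone. Clock genes gave 3 and 8 in place of 5 by replicate 2 and replicate 1 alone, and chromaffin genes 1 in place of 0 by replicate 2 alone. Housekeeping genes gave 3 and cholesterol synthesis genes 2 in place of 0 with 6 or more footprints. With 8 or more, glucocorticoid response genes gave 2 in place of 5, immediate early genes 3 in place of 5 and cAMP genes 1 in place of 4. No paired analysis was possible because there is 1 group and no groups are compared. Footprints carry no strength value and no counts, so a region with few footprints cannot be told from one cut too seldom to show them.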

Other observations

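A small group of members had many footprints at little signal. In 19 members, both signals were below the medians of all shared regions (0.810 and 1.04). These regions were wide, with a median of 920 bp against 420 bp in the other 1749 members, and held a median of 8 footprints in each pool. Their density was 0.870 footprints per 100 bp, against 2.05, and a median of 2 footprints recurred between pools, against 5. The 6 with the most footprints lay nearest to Lef1 (10 and 12 footprints, 3 recurring), Bod1l (12 and 10, 1 recurring), Klf4 (10 and 9, 6 recurring), Hoxb3 (10 and 8, 1 recurring), Fancc (8 and 9, 1 recurring) and Xkr6 (8 in each pool, 3 recurring). This grouping was made after the values were seen.

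Imprinted genes were looked at after Peg3 and Impact appeared among the distal members with the most footprints. Of 34 imprinted genes matched, 5 had a member within 5 kb. They were Peg3 and its divergent neighbour Usp29, which share the same 2 regions, Impact, Gnas and Trappc9. Since Peg3 and Impact prompted the list, its count is not set against that of all genes. The Gnas locus held 2 members, with 7 and 9 footprints in the one and 8 and 7 in the other. YY1 motifs were present at Peg3 only, with 4 and 3 matches, and were at 0 in the members of the other 3 loci. The mice are hybrids, but the deposited files do not separate the parental alleles.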
